A study of Mus musculus with 4 samples.

Results

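Chemokines are small secreted proteins that steer leukocytes, and they act on receptors of the seven-transmembrane type that signal through heterotrimeric G proteins of the Gi class. Formyl peptide receptors belong to the same receptor superfamily and sense N-formylated peptides of bacteria and of damaged mitochondria. In myeloid cells these systems hold immature cells in the bone marrow, release mature neutrophils and monocytes into blood, and direct them to sites of infection. The genes described here are 10 members of these families, chosen by name with earlier results of these data known. They are the receptors Cxcr2, Cxcr4, Ccr1, Ccr2, Fpr1 and Fpr2, and the ligands Ccl3, Ccl4, Ccl6 and Ccl9. All 10 were found among the 23756 genes of the deposited table.

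The RNA-seq libraries came from 32Dcl3 cells, mouse myeloid progenitors that need interleukin-3 (IL-3) to grow, after CRISPR/Cas9 editing of Abl1 and selection of single clones (32Dcl3-Abl1ko). Cells labelled Abl1 KO with IL-3 (Abl1ko/IL3+) and cells labelled Abl1 KO without IL-3 (Abl1ko/IL3-), which in the study grew out after gradual withdrawal of the factor, were each sequenced in 2 libraries. Both groups carry the Abl1 edit, so the comparison addresses growth without IL-3 in edited cells and not the loss of Abl1 itself. The labels call the experiments biologically duplicated without tying a library to a clone. With 2 libraries against 2, an exact two-sided permutation test of a single value cannot go below p = 0.333, so the tests given come from a model across all genes.

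The libraries held 48953174 to 60382588 counts, and 3 counts, taken as the limit of detection, correspond to 0.0465 to 0.0627 CPM (counts scaled to a common library size by the trimmed mean of M values, TMM). This limit covers counting error only. For Abl1, 1322 and 2222 reads were counted with IL-3 and 1544 and 2256 without it. The labels describe the cells as pre-B cells. Of the pre-B list, 7 genes were in the table. Cd79b, a B cell receptor subunit, had 607 to 1044 counts, Cd79a 43 to 635 and Vpreb1 57 to 157, whereas Igll1 had 12 to 57, Vpreb2 at most 8 and Rag1 at most 4. The summed level of that list was 19.0 to 26.0 CPM, whereas 12 early myeloid genes summed to 2148 to 4993 CPM, with Mpo (myeloperoxidase) at 28978 to 121109 counts. Kit, the stem cell factor receptor, had at most 4 counts in any library.

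The positions of the 10 genes were read from the deposited table (GRCm38) and were the same in GENCODE release M21. The 4 ligand genes lie on chromosome 11: Ccl9 at chr11:83572919-83578636 and Ccl6 at chr11:83587882-83593087 on the minus strand, Ccl3 at chr11:83647844-83649355 on the minus strand, and Ccl4 at chr11:83662584-83664683 on the plus strand. Ccl9 and Ccl6 are 9245 bases apart and Ccl3 and Ccl4 13228 bases. Ccr1 (chr9:123962124-123968692, minus strand) and Ccr2 (chr9:124101950-124113557, plus strand) are 133257 bases apart. Fpr1 (chr17:17876471-17883940, minus strand) and Fpr2 (chr17:17887824-17893952, plus strand) are separated by 3883 bases. Fpr2 shares 48 exon bases with Fpr3 on the same strand, and Ccl6 is overlapped on the opposite strand by E230016K23Rik without shared exon bases. Cxcr2 (chr1:74153989-74161246, plus strand) and Cxcr4 (chr1:128588199-128592293, minus strand) lie far apart on chromosome 1.

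RefSeq promoter windows, each 250 bases before to 50 bases after the annotated start (GRCm38.p6), were matched for 9 of the 10 genes, and 5 are shown. Ccl6 and Ccl9 are printed together because these neighbours had similar FPKM levels but very different spread between libraries. Capitals mark the stretch that aligned between both windows, in which 59 of 67 aligned bases were identical (88.1%). It runs from 59 bases before to 14 bases after the start of Ccl6, and from 18 bases before to 48 bases after that of Ccl9.
Ccl6, chr11:83593038-83593337, minus strand: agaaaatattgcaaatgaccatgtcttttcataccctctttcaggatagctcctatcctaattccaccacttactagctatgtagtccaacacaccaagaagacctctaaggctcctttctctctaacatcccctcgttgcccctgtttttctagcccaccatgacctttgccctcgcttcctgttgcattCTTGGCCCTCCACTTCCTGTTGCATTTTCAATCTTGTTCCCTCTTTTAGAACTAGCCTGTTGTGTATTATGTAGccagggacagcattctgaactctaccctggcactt
Ccl9, chr11:83578587-83578886, minus strand: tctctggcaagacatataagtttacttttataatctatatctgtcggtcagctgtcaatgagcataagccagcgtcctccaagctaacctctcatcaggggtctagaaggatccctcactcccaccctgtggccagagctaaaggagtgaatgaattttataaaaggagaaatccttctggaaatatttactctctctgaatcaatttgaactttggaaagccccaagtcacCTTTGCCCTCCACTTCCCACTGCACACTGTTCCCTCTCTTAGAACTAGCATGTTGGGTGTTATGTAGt

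The windows of Cxcr2, Ccr1 and Ccl3 are shown because they hold a motif of myeloid promoters and belong to genes counted in every library. Capitals mark GAGGAA, the core letters bound by PU.1 (encoded by Spi1), a transcription factor of myeloid cells, on either strand.
Cxcr2, chr1:74153744-74154043, plus strand: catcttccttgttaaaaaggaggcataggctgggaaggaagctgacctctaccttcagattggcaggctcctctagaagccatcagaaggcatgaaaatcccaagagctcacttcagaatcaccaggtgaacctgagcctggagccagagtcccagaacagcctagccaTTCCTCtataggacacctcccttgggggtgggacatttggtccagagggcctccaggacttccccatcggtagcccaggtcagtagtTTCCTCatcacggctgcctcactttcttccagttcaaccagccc
Ccr1, chr9:123968643-123968942, minus strand: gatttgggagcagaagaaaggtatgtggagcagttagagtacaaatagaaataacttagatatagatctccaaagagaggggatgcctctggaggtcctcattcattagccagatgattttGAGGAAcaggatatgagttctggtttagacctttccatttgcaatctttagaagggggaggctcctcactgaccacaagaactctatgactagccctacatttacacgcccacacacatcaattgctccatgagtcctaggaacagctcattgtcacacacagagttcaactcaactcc
Ccl3, chr11:83649329-83649628, minus strand: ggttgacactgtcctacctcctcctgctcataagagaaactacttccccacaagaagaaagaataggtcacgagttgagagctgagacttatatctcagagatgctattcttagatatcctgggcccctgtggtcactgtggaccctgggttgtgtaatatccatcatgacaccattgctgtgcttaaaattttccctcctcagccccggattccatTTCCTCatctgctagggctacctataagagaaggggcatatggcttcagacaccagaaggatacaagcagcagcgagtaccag
These letters were found in 4 of the 9 windows (Cxcr2, Ccr1, Fpr2 and Ccl3) and in 28.3% of all 32851 RefSeq windows of this length. TTCNNNGAA, the letters bound by STAT factors, which act downstream of the IL-3 receptor, were found in 1 window, that of Fpr2, and in 8.30% of all windows. TTGCNNAA, a form of the C/EBP site, was found in 0 of the 9 windows and in 10.8% of all windows. The NF-kappaB consensus was found in 2 windows (Ccr1 and Ccl9, 8.46% of all), and TGANTCA, the AP-1 site, in that of Ccl9 alone (7.81% of all). TATAAA, the letters of the TATA box, were found in 4 of the 9 windows (Cxcr4, Fpr1, Fpr2 and Ccl9) and in 13.6% of all windows. All motifs were searched on both strands, and a match describes letters only.

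Ranked by mean FPKM over the 4 libraries, which takes account of gene length, the members fell into abundant, intermediate and barely detected genes. Ccl6 and Ccl9, CC chemokines that act on Ccr1, led with 110.3 to 505.2 FPKM and 235.1 to 313.9 FPKM, and their ranges overlapped. Cxcr4, the receptor for Cxcl12 that retains cells in the marrow, followed with 53.8 to 239.6 FPKM, a range that overlapped those of Ccl6 and Ccl9. Cxcr2, the receptor for neutrophil-attracting CXC chemokines, had 4.89 to 43.7 FPKM and stood below Cxcr4 in every library. Ccr1, a receptor for several CC chemokines, had 2.94 to 22.5 FPKM, and Ccl3, an inflammatory ligand of Ccr1, 0.782 to 33.9 FPKM, so neither range was separate from that of Cxcr2. Ccl4, an inflammatory CC chemokine, reached at most 4.46 FPKM. Fpr1, Ccr2 and Fpr2 stayed at or below 0.217, 0.248 and 0.176 FPKM.

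Ccl6 and Ccl9 made up 91.1% to 98.9% of the summed FPKM of 21 chemokine ligand genes in the table. In each library Ccl9 lay between percentile 98.8 and 99.2 of all genes by FPKM, and Ccl6 between percentile 97.9 and 99.4. Among 31 chemoattractant receptor genes, Cxcr4 alone made up 65.5% and 31.2% of the summed FPKM with IL-3, against 56.6% and 53.7% without it (replicates 1 and 2 throughout). The cells carried transcripts of Cxcr4 and of the Ccr1 ligands Ccl6 and Ccl9 at high levels in both groups.

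Across all genes, 0 of 16535 tested genes (0%) differed between the groups at the adjusted threshold of 0.05 in edgeR's quasi-likelihood test, and 978 (5.91%) were under 0.05 before adjustment. Of the 10 members, 8 passed the filter on low counts, as did 69.6% of all genes, and 0 of the 8 passed the adjusted or the unadjusted threshold. DESeq2 called 271 genes (1.64%), of which 0 were members, and gave 2 members an unadjusted p-value under 0.05, against 8.28% of the genes tested. Fpr1 and Fpr2 were too rare for the test. Ccr2 reached the filter in the Abl1ko/IL3- libraries alone. In such bulk samples fewer cells of a type and less RNA per cell cannot be told apart.

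**Figure D1:**
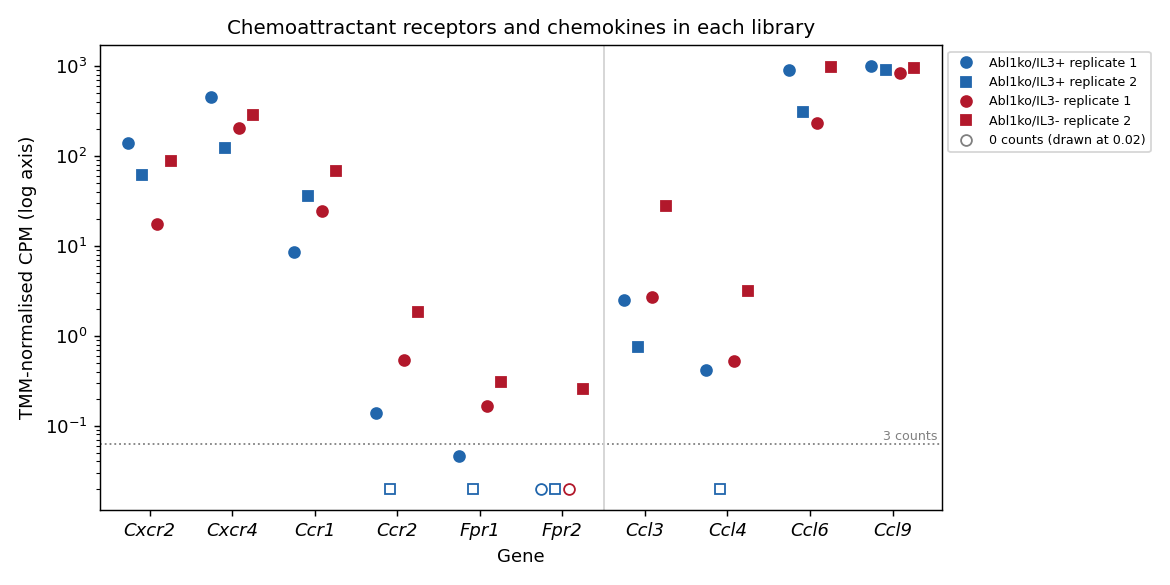
TMM-normalised CPM (log axis) of the 6 receptors (left) and 4 ligands (right) in each of the 4 libraries, with blue for Abl1ko/IL3+ and red for Abl1ko/IL3-, circles for replicate 1 and squares for replicate 2. Open symbols are libraries with 0 counts, the dotted line is the highest 3-count limit (0.0627 CPM), and within each gene Abl1ko/IL3- replicate 2 stands above Abl1ko/IL3- replicate 1.

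Among the receptors, Cxcr2 was at 138.3 and 62.3 CPM with IL-3 and at 17.4 and 89.0 CPM without it. The groups overlapped, because Abl1ko/IL3- replicate 2 lay above Abl1ko/IL3+ replicate 2. Relative to cells with IL-3, the fitted log2 fold change was -0.91 (standard error 0.85, adjusted p = 0.933). It was -0.17 without Abl1ko/IL3- replicate 1 and -2.52 without Abl1ko/IL3- replicate 2. The replicates without IL-3 differed 5.10-fold, more than the fitted difference between groups.

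Cxcr4 was at 450.0 and 121.4 CPM with IL-3 and at 202.8 and 286.0 CPM without it. Both Abl1ko/IL3- libraries lay between the Abl1ko/IL3+ libraries, which differed 3.71-fold. The log2 fold change was -0.23 (standard error 0.67, adjusted p = 0.987). Its sign depended on single libraries, at 1.03 without Abl1ko/IL3+ replicate 1 and -0.88 without Abl1ko/IL3+ replicate 2, and it was 0.043 with the replicate number as a block.

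Ccr1 was at 8.67 and 35.6 CPM with IL-3 and at 24.4 and 68.8 CPM without it. Abl1ko/IL3- replicate 2 was the highest library, and Abl1ko/IL3+ replicate 2 stood above Abl1ko/IL3- replicate 1, so the groups overlapped. The log2 fold change was 1.08 (standard error 0.84, adjusted p = 0.919). It was 0.16 without Abl1ko/IL3- replicate 2 and 2.43 without Abl1ko/IL3+ replicate 2.

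Ccr2, the receptor through which Ccl2 mobilizes inflammatory monocytes, had 9 and 0 counts in the presence of IL-3, against 26 and 106 in its absence. The groups did not overlap, and the lower Abl1ko/IL3- library was 3.89-fold above the higher Abl1ko/IL3+ library in CPM. In edgeR the log2 fold change was 4.01 (standard error 1.60, adjusted p = 0.847), and 2.89 without Abl1ko/IL3- replicate 2. Of its 50-base transcript segments, 1.91% were shared with transcripts of 23 other genes. For Cxcr2 the share was 6.68%, with 220 other genes, and for Ccl9 1.97%, with 463 other genes.

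The formyl peptide receptors were close to the limit of detection. Fpr1, the main receptor for bacterial formyl peptides on neutrophils, had 3 and 0 counts in the presence of IL-3, against 8 and 18 in its absence. Summed over each group, its CPM ratio without over with IL-3 was 9.73 (exact 95% interval 2.98 to 50.2). The interval covers counting error only, with each count taken as independent, and no spread between cultures. Counts from 1 to 20 were more often even than odd, so the interval may be too narrow. Fpr2, a receptor with a wide range of peptide and lipid ligands, had 15 counts in Abl1ko/IL3- replicate 2 and 0 counts in the other libraries. It was thus counted in a single library, and no fold is given. Of the 50-base transcript segments of Fpr2, 31.5% were shared with Fpr1, Fpr3 or Gm5966, so its counts are uncertain.

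Among the ligands, Ccl3 was at 2.48 and 0.754 CPM with IL-3 and at 2.71 and 28.0 CPM without it. Abl1ko/IL3- replicate 2 stood 10.3-fold above its replicate, and Abl1ko/IL3- replicate 1 was only 1.09-fold above the higher Abl1ko/IL3+ library. The log2 fold change was 3.25 (standard error 1.28, adjusted p = 0.844). Without Abl1ko/IL3- replicate 2 it was 0.75. On the FPKM scale the groups overlapped, with 3.11 in Abl1ko/IL3+ replicate 1 and 3.01 in Abl1ko/IL3- replicate 1.

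Ccl4, whose gene neighbours Ccl3, had 27 and 0 counts in the presence of IL-3, against 25 and 185 in its absence. In CPM these were 0.419 and 0 against 0.522 and 3.19, so the groups were separate by 1.25-fold and the high value was again that of Abl1ko/IL3- replicate 2. For this gene the log2 fold change was 3.12 (standard error 1.82, adjusted p = 0.884), and 1.30 without that library. In the 3 libraries where both were counted, Ccl3 had 4.51 to 7.59 times the FPKM of Ccl4.

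Ccl6 was at 900.9 and 305.3 CPM with IL-3 and at 231.6 and 979.4 CPM without it. Each group held a high and a low library, with 2.95-fold between the Abl1ko/IL3+ replicates and 4.23-fold between the Abl1ko/IL3- replicates. The fitted log2 fold change was 0.0054 (standard error 0.86, adjusted p = 1). It was 1.0 without Abl1ko/IL3+ replicate 1 and -1.38 without Abl1ko/IL3- replicate 2, so the fitted value near 0 stood beside libraries that differed widely within each group.

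Ccl9 was at 992.9 and 907.8 CPM with IL-3 and at 837.2 and 955.8 CPM without it. Replicates differed 1.09-fold with IL-3 and 1.14-fold without it, the closest of the 10 genes. The log2 fold change was -0.084 (standard error 0.33, adjusted p = 0.99). The ratio of Ccl6 to Ccl9 in FPKM was 1.54 and 0.570 with IL-3, against 0.469 and 1.74 without it. The levels of these adjacent ligand genes were thus not proportional between libraries of the same group.

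**Figure D2:**
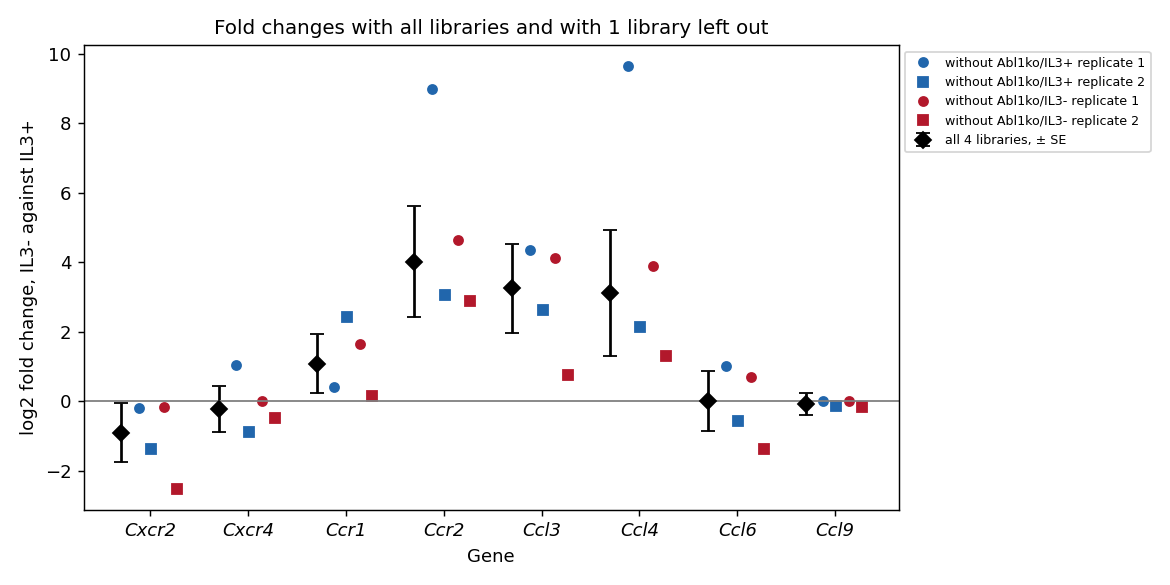
Log2 fold change of Abl1ko/IL3- against Abl1ko/IL3+ for the 8 tested genes, with all 4 libraries (black diamonds, bars are the standard error) and with each library left out. The estimates of Cxcr4 and Ccl6 lie on both sides of 0, those of Ccl9 stay between -0.18 and 0.0080, and the highest points of Ccr2 and Ccl4 set 0 counts of a lone Abl1ko/IL3+ library against the others and are no measure of size.

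The groups did not overlap in CPM for 4 of the 10 members, Ccr2, Fpr1, Ccl3 and Ccl4, each higher without IL-3, and in that direction for 16.7% of all genes in the table. In the opposite direction the number was 0 of 10, against 14.6% of all genes. Scaled by library size alone or taken as FPKM, 3 members were separate, because Ccl3 then overlapped. Of these genes, Ccr2, Ccl3 and Ccl4 did not pass the test across all genes, which left out Fpr1.

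The spread within groups was wide for the members. Without IL-3, replicate 2 was above replicate 1 for 10 of 10 members (46.6% of all genes). The same held for 8 of the 8 tested (50.7% of the genes tested). In either direction, the replicates without IL-3 were over 2-fold apart for 6 of the 8 tested, against 19.5% of the genes tested. The highest library of all was Abl1ko/IL3- replicate 2 for 7 members, against 19.6% of all genes, and Abl1ko/IL3+ replicate 1 for Cxcr2, Cxcr4 and Ccl9, against 30.1%. With IL-3, 7 of the 8 tested members were over 2-fold apart between replicates, against 40.0% of the genes tested. Abl1ko/IL3+ replicate 2 was the lowest library for 4 of the 8 tested, against 30.4% of the genes tested. For Cxcr2, Cxcr4 and Ccl6 the highest levels were those of Abl1ko/IL3+ replicate 1 and Abl1ko/IL3- replicate 2.

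The sum over markers of maturing neutrophils was also highest in Abl1ko/IL3- replicate 2. The summed level of 12 such genes was 1192 and 443.1 CPM with IL-3 and 1125 and 5832 CPM without it, of which Ngp alone made up the larger share. In edgeR 9 of 10 tested genes had a log2 fold change above 0, against 7946 of 16535 over all genes tested. The other, Mmp9, was at -0.33. Of the 10, 0 passed the adjusted threshold and 5 the unadjusted one, against 5.91% of all genes tested. The groups did not overlap for 5 of the 10, each higher without IL-3, against 19.4% of all genes tested. These were S100a8, S100a9, Ltf, Ly6g and Camp, whereas Ngp, Lcn2, Itgam, Csf3r and Mmp9 overlapped. Camp, with 4 and 0 counts with IL-3 against 21 and 193 without it, reached the filter in the Abl1ko/IL3- libraries alone. It was thus tested only through the group where it was high. S100a8, a calcium-binding protein of neutrophils, was at 1.15 and 0.386 CPM with IL-3 and at 71.2 and 123.4 CPM without it. Ltf (lactoferrin) was at 6.29 and 3.62 CPM with IL-3 and at 45.7 and 337.8 CPM without it. Mmp8 was at 0 in both libraries with IL-3, and Retnlg was counted only in Abl1ko/IL3- replicate 1, with 4 counts. The sum of 11 monocyte or macrophage genes was 337.8 and 81.9 CPM with IL-3 and 112.8 and 239.7 CPM without it, with the same pair of libraries high as for Cxcr2, Cxcr4 and Ccl6. Of 7 tested genes 2 had a log2 fold change above 0 and 5 below it. Adgre1, the largest part of the sum in each library, was at 200.45 and 45.4 CPM with IL-3 and 52.3 and 113.5 CPM without it. C1qb had 1104 and 27 counts in the presence of IL-3, against 0 and 14 in its absence (log2 fold change -6.12, adjusted p = 0.841 in edgeR). Of the genes too rare for the test, Ly6c2 had 83 counts in Abl1ko/IL3+ replicate 1 and 0 in the other libraries. Cd14 was counted 2 and 0 times in the presence of IL-3, against 8 and 589 in its absence. The part of either cell type in the members' levels was not tested.

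Other marker lists also differed between libraries, within a group or between the groups. The summed level of 6 erythroid genes was 183.5 and 7081 CPM with IL-3 and 3460 and 1681 CPM without it. For 10 mast cell or basophil genes it was 1463 and 259.1 CPM with IL-3 and 433.7 and 457.0 CPM without it. For 5 eosinophil genes it was 3110 and 3484 CPM with IL-3 and 1635 and 1129 CPM without it, so both sums without IL-3 were lower. Among these genes Epx and Ear6 were lower in both Abl1ko/IL3- libraries and Siglecf was higher in both. Prg2 was at 39.6 and 2063 CPM with IL-3, with overlapping groups. The 12 early myeloid genes summed to 4993 and 3208 CPM with IL-3 and 2791 and 2148 CPM without it. In edgeR 9 of 11 tested had a log2 fold change below 0, against 8589 of 16535 over all genes tested. Of the 11, 0 passed the adjusted threshold. The groups did not overlap for 2 of them, each lower without IL-3, against 17.9% of all genes tested. T cell genes, 6 of them, summed to at most 7.65 CPM. The part of these in the members' levels was not tested.

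**Figure D3:**
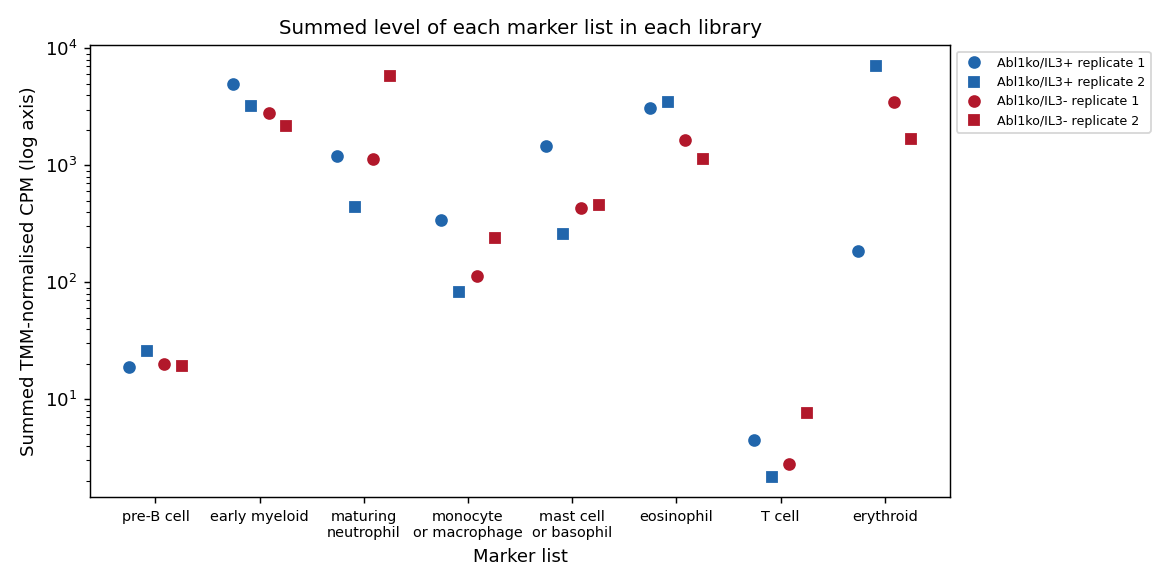
Summed TMM-normalised CPM (log axis) of 8 lists of cell type markers in each library, with blue for Abl1ko/IL3+, red for Abl1ko/IL3-, circles for replicate 1 and squares for replicate 2. Abl1ko/IL3- replicate 2 has the highest sum of neutrophil genes, 5832 CPM, and the pre-B list stays at or below 26.0 CPM in every library.

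Ligands and receptors related to the 10 genes were read from names listed with them. Cxcl2, a ligand of Cxcr2 that draws neutrophils, had 19 and 33 counts in the presence of IL-3, against 130 and 3504 in its absence. Both Abl1ko/IL3- libraries lay above both Abl1ko/IL3+ libraries, and replicate 2 carried most of the signal. Its log2 fold change was 6.13 (standard error 1.66, adjusted p = 0.727 in edgeR), and 2.60 without Abl1ko/IL3- replicate 2. The adjusted p-value was 5.13e-05 with DESeq2, and 0.0249 in edgeR without Abl1ko/IL3- replicate 1. Over the remaining edgeR and limma settings it ranged from 0.281 to 1.

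Cxcl3, a further Cxcr2 ligand, had 8 and 4 counts in the presence of IL-3, against 19 and 416 in its absence (log2 fold change 5.22, standard error 1.58, adjusted p = 0.745 in edgeR and 0.00862 with DESeq2). Cxcl3 reached the filter in the Abl1ko/IL3- libraries alone, so it was tested only through the group where it was high. Without Abl1ko/IL3- replicate 2 its log2 fold change was 1.98. Cxcl1 had 4 counts in Abl1ko/IL3+ replicate 1 and 0 in the other libraries. Cxcl12, the ligand of Cxcr4, had 8 and 24 counts in the presence of IL-3, against 29 and 12 in its absence, with overlapping groups (log2 fold change 0.52, adjusted p = 0.98). Ackr3, a scavenger of Cxcl12, had 0 and 13 counts in the presence of IL-3, against 12 and 17 in its absence.

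Ccl5, an inflammatory CC chemokine that draws T cells and monocytes, had 94 and 35 counts in the presence of IL-3, against 82 and 219 in its absence (log2 fold change 1.38, adjusted p = 0.872, and 0.71 without Abl1ko/IL3- replicate 2). The groups of Ccl5 were separate in CPM, at 1.46 and 0.644 against 1.71 and 3.77. Ccl2, the ligand of Ccr2, was counted only in Abl1ko/IL3- replicate 2, with 4 counts. Anxa1, a ligand of formyl peptide receptors, was at 11.9 and 22.1 CPM with IL-3 and 7.62 and 12.6 CPM without it, and the groups overlapped (log2 fold change -0.75, adjusted p = 0.901). C5ar1, the receptor for complement fragment C5a, had 114 and 48 counts in the presence of IL-3, against 50 and 16 in its absence (log2 fold change -1.01, adjusted p = 0.931).

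**Figure D4:**
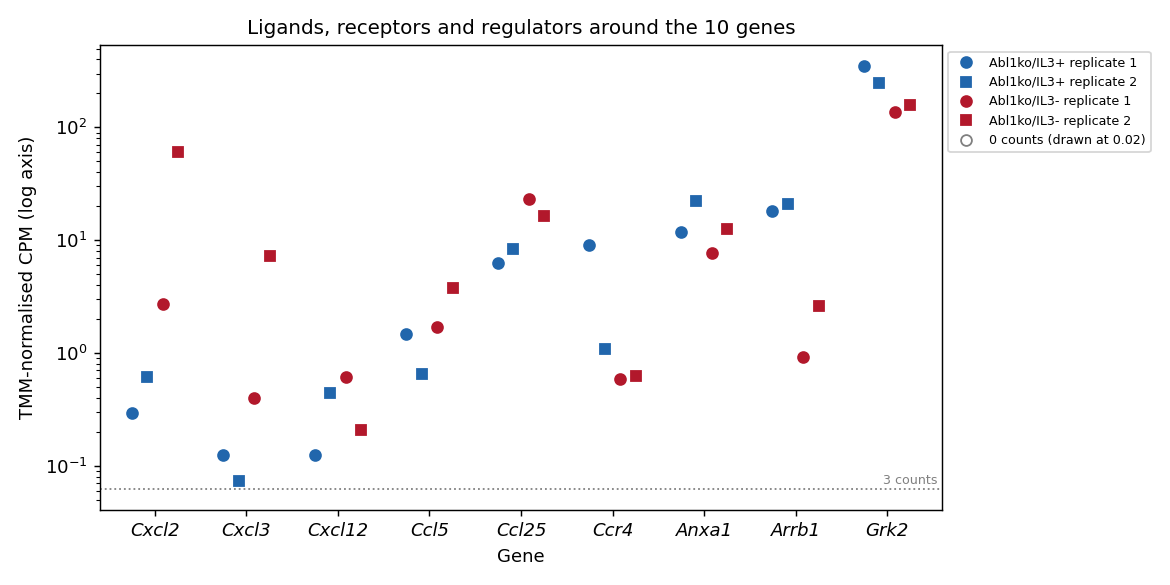
TMM-normalised CPM (log axis) in each library of 9 ligands, receptors and regulators of chemotaxis. Blue is Abl1ko/IL3+, red is Abl1ko/IL3-, circles are replicate 1 and squares are replicate 2. Cxcl2 in Abl1ko/IL3- replicate 2 stands at 60.3 CPM, far above the other 3 libraries, whereas Arrb1 is lower in both Abl1ko/IL3- libraries.

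Of the 5 lists of other chemotaxis genes, 71 genes were in the table and 56 were tested. Their median log2 fold change was -0.045, beside -0.027 over all genes tested, with 27 above 0 and 29 below. In edgeR 0 of them passed the adjusted threshold and 8 the unadjusted one (5.91% of all genes tested). DESeq2 called 3 (1.64% of all genes tested), namely Cxcl2, Cxcl3 and Arrb1. Of these, Cxcl3 reached the filter in the Abl1ko/IL3- libraries alone. Other CC ligands gave 4 tested genes with a median of -0.55. Ccl25, a thymic and intestinal ligand, was at 6.22 and 8.27 CPM with IL-3 and 23.1 and 16.4 CPM without it (log2 fold change 1.44, adjusted p = 0.737). The CXC, CX3C and XC ligands gave 6 tested genes with a median of 0.37.

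Other chemokine receptors gave 11 tested genes, 9 above 0, with a median of 0.88. Ccr4, a receptor of T cells and basophils, went the other way, with 8.99 and 1.08 CPM with IL-3 and 0.585 and 0.620 CPM without it (log2 fold change -3.06, adjusted p = 0.833). Without Abl1ko/IL3+ replicate 1 it was -0.83. Other chemoattractant receptors gave 7 tested genes with a median of -0.56. The leukotriene B4 receptors were among those below 0, with Ltb4r1 at 40.4 and 73.8 CPM against 33.1 and 34.0 CPM and Ltb4r2 at 11.3 and 9.98 CPM against 6.62 and 6.13 CPM (adjusted p = 0.87 and 0.874).

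The genes that transmit or end receptor signals gave 28 tested genes with a median of -0.23, 10 above and 18 below 0. The groups did not overlap for 8 of them in the lower direction and 2 in the higher one, against 17.9% and 19.4% of all genes tested. Arrb1, a beta-arrestin that desensitizes and internalizes such receptors, was at 18.1 and 20.8 CPM with IL-3 and at 0.919 and 2.62 CPM without it. Its replicates were close with IL-3, and each Abl1ko/IL3- library was far below them. The fitted log2 change was -3.46 (standard error 0.67, adjusted p = 0.726 in edgeR and 5.23e-05 with DESeq2), and it stayed between -4.39 and -2.89 with each library left out. Grk2, a kinase that marks activated receptors for arrestin binding, was at 347.0 and 249.5 CPM with IL-3 and 137.9 and 159.5 CPM without it (log2 fold change -1.0, standard error 0.34, adjusted p = 0.815).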

How the data were processed

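RNA depleted of ribosomal RNA was sequenced on an Illumina HiSeq instrument. The authors deposited raw counts per gene. Their methods name Rsubread and featureCounts with GRCm38, whereas the submitters' processing notes name STAR, Cuffdiff and mm10. Deposited FPKM values were used to compare genes, and the sources do not say which tool made them. Versions, strand and read-pair settings are not given in the sources used here, so counts of overlapping genes and paralogs are uncertain. Counts from 1 to 20 were even in 57.7% to 59.9% of genes. Both deposited count tables held the same values in all 23756 rows.

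Groups came from the sample titles. In R 4.3.3, edgeR 4.0.16 was run with filterByExpr, TMM and the quasi-likelihood test (two-sided, Benjamini-Hochberg over 16535 genes, threshold 0.05). Standard errors came from the fold change and F. Alternatives were DESeq2 1.42.0, limma 3.58.1 on log2(FPKM + 1) and log2(FPKM + 0.1), library size only, no filter, 10 counts in every library, the replicate block and leaving out each library. Crossed pairs were added after seeing the data. Fits were tested on simulated data.

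Named genes were the 10 members, listed partners, Abl1 and, in each chemotaxis list, genes past the adjusted threshold and the 2 lowest unadjusted p-values among genes whose groups did not overlap. The members and lists were chosen with earlier results of these data known. Names absent from the table were not analysed here. Some genes that the rule names are not reported here. Motif windows came from RefSeq (GRCm38.p6), and shared 50-base segments from GENCODE M21 transcripts.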

Additional observations from a re-analysis of the deposited data

How the results depend on the processing

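No member passed the adjusted threshold in edgeR, DESeq2 or limma under any of the 12 alternatives run, and leaving out each library gave 0 throughout. Over all genes, DESeq2 called 271 genes and edgeR without a library 0 to 15, the 15 without Abl1ko/IL3- replicate 1. Of the other chemotaxis genes, DESeq2 called 3 and edgeR without a library 0 to 1. The causes were not tested. The direction of Cxcr4 reversed with the replicate block (0.043), limma on log2(FPKM + 1) (0.058) and on log2(FPKM + 0.1) (0.062) and the crossed pairs (0.043), and without a library its log2 fold change ran from -0.88 to 1.03. That of Ccl6 reversed in the same 4 fits (-0.14, -0.12, -0.12 and -0.14) and ran from -1.38 to 1.0, and Ccl9 ran from -0.18 to 0.0080. The direction of Cxcr2, Ccr1, Ccr2, Ccl3 and Ccl4 held in each fit made. Same-numbered libraries deviated from their group means with a correlation of -0.194 across genes, so the number was not taken as a pairing. The replicate block gave 0 calls over all genes and 548 unadjusted ones, and the crossed pairs 0 and 1136. With a library left out, the lone sample of a group is assumed to vary like the other group. Fpr1 and Fpr2 were tested only with no filter, and Ccr2 and Ccl4 could not be tested with 10 counts in every library. The block changed no call.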
